A study of Mus musculus with 4 samples.

Results

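Levels of the dendritic and spine microRNAs miR-135a, miR-135b, miR-137, miR-138 and miR-218 were examined in small RNA libraries of mouse brain cortex. The members were the main arm of each of these miRNAs, that is miR-135a-5p, miR-135b-5p, miR-137-3p, miR-138-5p and miR-218-5p, together with miR-138-1-3p and miR-138-2-3p from the opposite arms of both miR-138 hairpins. All 7 were listed among the 942 mature miRNAs of the deposited table. They were chosen by name, but with earlier results of these data known. The study had already reported miR-138-5p as higher in both transgenic mice than in their siblings. The cortex of 4 mice was sequenced, 1 library per mouse: wild-type mice WT1 and WT2 and APPswe/PS1deltaE9 transgenic mice APP3 and APP4. All mice were 9 months old, of strain B6C3, kept under specific-pathogen-free conditions and anaesthetized with pentobarbital. The transgenic mice carried an amyloid precursor protein with the Swedish mutation and a presenilin 1 of the ΔE9 form. By the study, both mutations are linked to early-onset Alzheimer's disease in humans. The promoter of the transgenes is not given in the sources used here. By the study's methods WT1 and APP4 were siblings, as were WT2 and APP3. The design asked which miRNAs differ between cortexes with and without these transgenes.

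MicroRNAs are cut from hairpin precursors by Drosha and Dicer, and mostly 1 arm of the resulting duplex is loaded into Argonaute, while the opposite arm is largely degraded. The loaded strand finds its target mRNAs chiefly through its seed, bases 2 to 8, and lowers their translation and stability. In neurons some of this repression takes place in dendrites, close to synapses, where it bears on the growth of dendritic spines, the protrusions that receive most excitatory input. miR-138 is known as a brain-enriched miRNA of dendrites that limits spine size and represses the depalmitoylating enzyme APT1. miR-137 is known for its part in dendrite growth and for a schizophrenia risk locus at its human gene. miR-218 lies within the Slit2 and Slit3 genes, which encode axon guidance ligands of the Robo receptors. miR-135 has been linked to the shrinkage of spines after synaptic depression and to serotonergic neurons.

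Mature sequences were taken from RefSeq on GRCm38.p6, with the seed in capitals. They are shown because the seed sets which mRNAs a miRNA can reach and because the miR-138 arms on the 3′ side differ between the hairpins. miR-135a and miR-135b belong to the same seed family.
miR-138-5p: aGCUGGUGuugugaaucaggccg
miR-138-1-3p: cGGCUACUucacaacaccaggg
miR-138-2-3p: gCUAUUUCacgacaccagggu
miR-218-5p: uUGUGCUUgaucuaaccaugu
miR-137-3p: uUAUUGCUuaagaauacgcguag
miR-135a-5p: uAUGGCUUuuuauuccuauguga
The 6 seeds printed here differed from each other. The miR-138-5p sequence was the same in both hairpins, so its reads could not be assigned to a gene. The 3p arms of the miR-138 hairpins differed, so reads that match exactly could be told apart. Over most of their length these arms are alike, and the counts include reads with mismatches. Some reads may therefore stand for the wrong hairpin, which was not tested.

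The miR-138 hairpins are shown with both mature arms in capitals, since the arm and hairpin shares given below rest on them.
Mir138-1: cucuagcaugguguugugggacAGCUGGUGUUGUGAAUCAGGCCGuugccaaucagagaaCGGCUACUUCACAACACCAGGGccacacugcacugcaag
Mir138-2: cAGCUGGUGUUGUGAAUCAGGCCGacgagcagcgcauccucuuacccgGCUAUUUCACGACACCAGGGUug
On GRCm38, Mir138-1 lies at chr9:122682876-122682974 on the plus strand, in an exon of the transcribed pseudogene Gm47135. Mir138-2 lies at chr8:94324311-94324381 on the plus strand, in an exon of the long non-coding RNA C78859. Mir137 lies at chr3:118433857-118433929 on the plus strand, in an exon of the non-coding transcript Gm26871. The miR-218 hairpins lie in introns, Mir218-1 at chr5:48223942-48224051 in Slit2 and Mir218-2 at chr11:35616816-35616925 in Slit3, both on the plus strand. Mir135a-1, at chr9:106154124-106154213 on the plus strand, lies in an intron of D030055H07Rik and opposite an exon of Glyctk, and Mir135a-2, at chr10:92072086-92072185 on the minus strand, lies in an intron of the long non-coding RNA Rmst. Mir135b lies at chr1:132198088-132198184 on the plus strand, in an intron of Lemd1.

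Libraries held between 19048747 and 26085776 miRNA reads, so 3 reads, the limit that a count of 0 allows, corresponded to at most 0.157 RPM. Here RPM are reads per 1000000 miRNA reads of the library. Because 1 read stands for 1 mature miRNA, levels of different miRNAs needed no length correction, though adapter ligation can favour some sequences. Marker miRNAs of neurons summed to between 69588 and 78024 RPM, and those of muscle and liver to between 99.7 and 125 RPM. The miR-200 and miR-183 clusters, which are typical of epithelial and sensory cells, stood apart in APP4, with 5862 RPM against 1024 in WT1, 576 in WT2 and 803 in APP3. All 8 of their listed miRNAs were called higher in APP4 than in WT1 and than in APP3, and 4 of 8 were called lower in APP3 than in WT2. Whether this bears on the miRNAs described here was not tested. In whole cortex, fewer cells of a type and less miRNA per cell cannot be told apart.

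The main arms fell into 3 ranges of abundance. miR-138-5p and miR-218-5p were the most abundant and lay between 1666 and 3948 RPM. miR-137-3p and miR-135a-5p lay between 142 and 375 RPM, and miR-135b-5p between 30.4 and 38.5 RPM. Mean levels in the WT mice were 2065 ± 165 RPM (SD, n = 2) for miR-218-5p and 2056 ± 552 for miR-138-5p, which did not differ beyond their spread. In the APP mice, the means were 3561 ± 547 RPM (SD, n = 2) for miR-138-5p and 2459 ± 291 for miR-218-5p. miR-138-5p was below miR-218-5p in WT1 and above it in WT2, APP3 and APP4. miR-137-3p, at 299 ± 41.9 RPM in WT and 337 ± 53.6 in APP, exceeded miR-135a-5p, at 170 ± 8.42 and 161 ± 25.9, in every library. miR-135b-5p, at 35.1 ± 4.81 RPM in WT and 34.5 ± 5.73 in APP, overlapped with miR-138-1-3p, at 36.3 ± 11.3 and 43.1 ± 9.53. miR-138-2-3p was the lowest member, at 9.44 ± 1.38 RPM in WT and 13.6 ± 1.18 in APP.

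**Figure D1:**
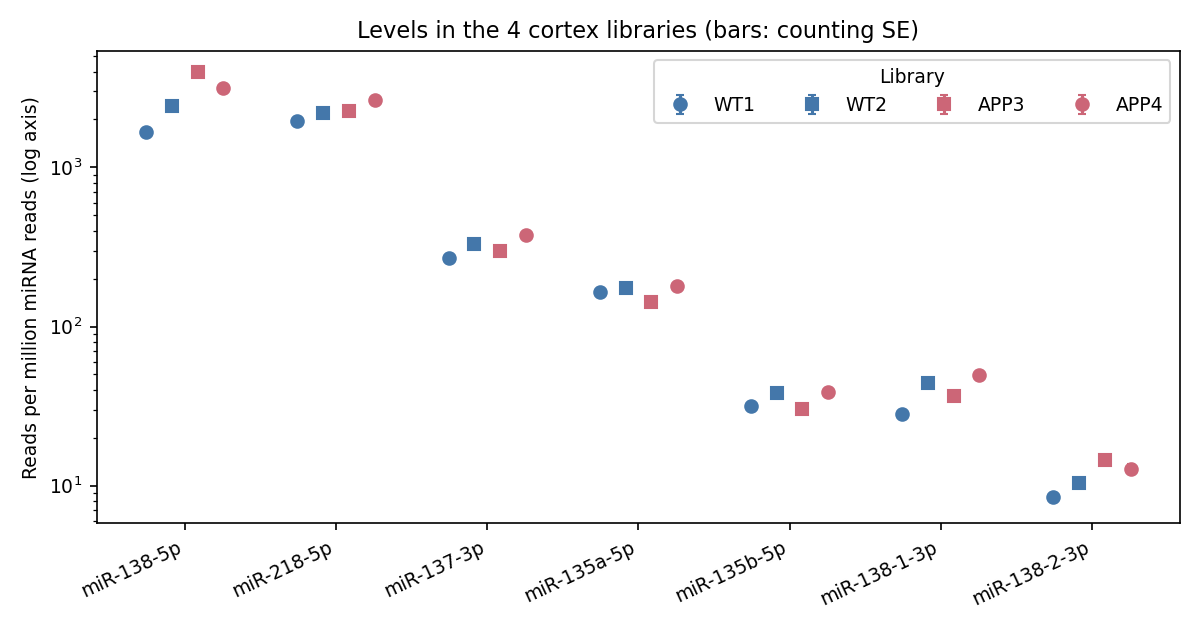
Level of each of the 7 members in the 4 libraries, in RPM on a log axis, with circles and squares for the sibling pairs, blue for WT and red for APP; the bars, counting SE, are mostly hidden by the points. miR-138-5p and miR-218-5p lie at 1666 RPM or higher in every library, and the WT and APP points of miR-138-5p do not overlap.

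miR-138-5p was higher in both APP mice than in both WT mice and varied most among the members. Its level was 1666 RPM in WT1 and 2447 in WT2, against 3948 in APP3 and 3174 in APP4. The highest library exceeded the lowest 2.37-fold, while the WT mice themselves also stood apart. By level it held rank 59 of the 942 miRNAs in WT1 and rank 52 in WT2, against 36 in APP3 and 44 in APP4. The log2 fold change was 0.93 (counting SE 0.01) in APP4 against WT1 and 0.69 (counting SE 0.01) in APP3 against WT2. Between mice of the same genotype it was 0.55 in WT2 against WT1 and -0.31 in APP4 against APP3. A miRNA was called in a pair of libraries when a two-sided Fisher's exact test of its reads had a Benjamini-Hochberg FDR under 0.05 and the levels differed at least 1.5-fold. miR-138-5p was called higher in both sibling pairs and was not called between mice of the same genotype, except that with clean reads as the library size it was also called in WT2 against WT1, at 0.64. The study also measured it by quantitative PCR in more mice. There it named miR-138-5p as the exception among the miRNAs changed in both pairs, although its supplement lists a smaller rise by PCR than by sequencing. Among the 252 miRNAs that averaged 50 RPM or more, the size of its change exceeded that of 95.6% in APP4 against WT1, 92.9% in APP3 against WT2, 88.9% in WT2 against WT1 and 66.3% in APP4 against APP3.

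The opposite arms of miR-138, which are mostly discarded after processing, did not follow the main arm in the same way. miR-138-1-3p was at 28.3 RPM in WT1 and 44.3 in WT2, against 36.3 in APP3 and 49.8 in APP4, so that the genotypes overlapped. It was called higher in APP4 than in WT1, with a log2 fold change of 0.81 (counting SE 0.07), and also in WT2 than in WT1, with 0.65 (counting SE 0.07). In APP3 against WT2 its log2 fold change was -0.29. miR-138-2-3p was at 8.47 RPM in WT1 and 10.4 in WT2, against 14.5 in APP3 and 12.8 in APP4, with the highest level in the library that also had the most miR-138-5p. Both APP libraries lay above both WT libraries. It was called in APP4 against WT1, with a log2 fold change of 0.60 (counting SE 0.13), and not in APP3 against WT2, where the value was 0.47 (counting SE 0.13).

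The share of miR-138 reads that came from the 3p side, with both hairpins summed, was lowest in APP3. It was 2.16% for WT1 (95% Wilson interval 2.03 to 2.30) and 2.19% for WT2 (2.07 to 2.31). For APP3 it was 1.27% (1.20 to 1.35), and for APP4 1.93% (1.83 to 2.05). These intervals cover counting error only. An arm share was called when a two-sided Fisher's exact test of 3p against 5p reads had an FDR under 0.05 and an odds ratio of at least 1.5. For miR-138 it was called in APP3 against WT2, with a log2 odds ratio of -0.80 (SE 0.06), and in APP4 against APP3, with 0.62 (SE 0.06). Neither reached an odds ratio of 2. In APP4 against WT1 the log2 odds ratio was -0.16, which passed the FDR but not the size. The reads of miR-138-5p per read of miR-138-1-3p were 58.8 in WT1 and 55.2 in WT2, against 108.6 in APP3 and 63.7 in APP4. By the arm share, APP3 differed from its wild-type sibling and from the other transgenic mouse.

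By the counts, Mir138-1 gave most of the miR-138 reads from the 3p arms. Its share of the reads of both 3p arms was 77.0% for WT1 (95% Wilson interval 74.2 to 79.5) and 81.0% for WT2 (78.7 to 83.1). For APP3 it was 71.5% (68.7 to 74.1), and for APP4 79.5% (77.2 to 81.7). The interval of APP3 lay below those of the other libraries. Such intervals cover counting error only, and not reads with mismatches that were assigned to the wrong arm.

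**Figure D2:**
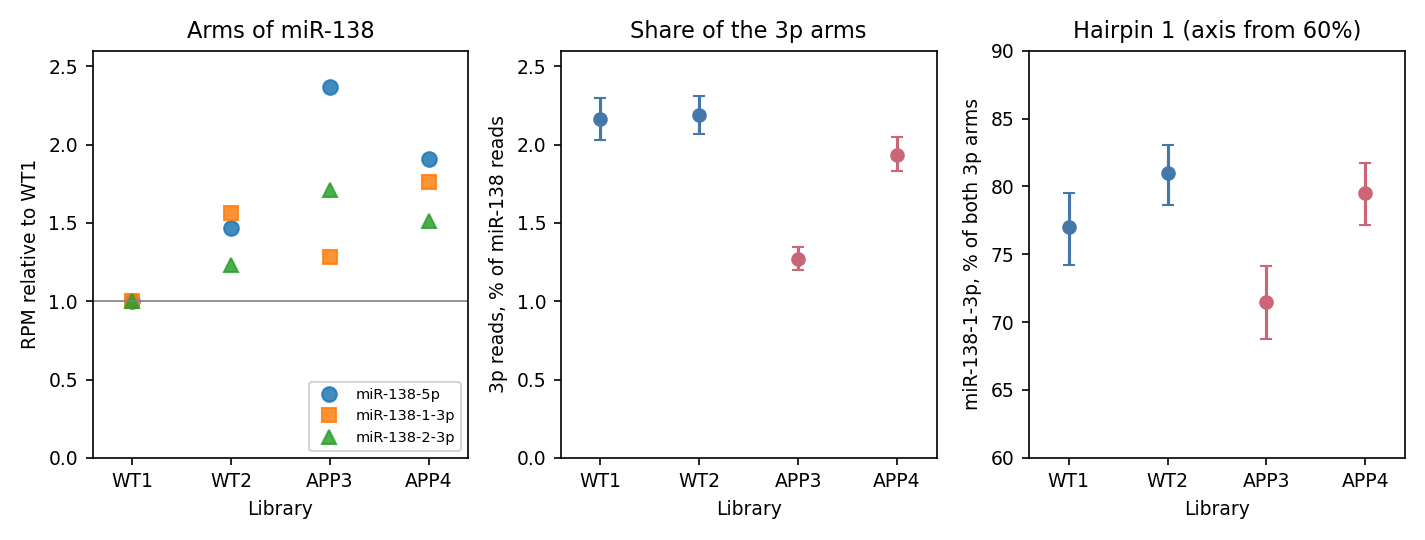
The miR-138 arms by library: level of each arm relative to WT1 (left), percent of miR-138 reads from the 3p arms (middle), and miR-138-1-3p as percent of the reads of both 3p arms on an axis that starts at 60% (right). Bars in the percent panels are 95% Wilson intervals, and APP3 has the highest miR-138-5p level, 2.37-fold above WT1, with the lowest 3p share, 1.27%.

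miR-218-5p was higher in both APP mice than in both WT mice, by less than the call required. Its level was 1949 RPM in WT1 and 2182 in WT2, against 2253 in APP3 and 2665 in APP4. The genotypes did not overlap, but WT2 and APP3 were close and APP4 stood highest. The log2 fold change was 0.45 in APP4 against WT1 and 0.05 in APP3 against WT2, beside 0.16 in WT2 against WT1 and 0.24 in APP4 against APP3. Neither sibling pair was called. The opposite arm of the Slit3 hairpin, miR-218-2-3p, was at 5.33 RPM in WT1 and 7.75 in WT2, against 8.13 in APP3 and 9.61 in APP4. It was called in APP4 against WT1, with a log2 fold change of 0.85 (counting SE 0.16), and was at 0.07 in APP3 against WT2. For the Slit2 hairpin, miR-218-1-3p was at 11.2 RPM in WT1 and 16.4 in WT2, against 14.3 in APP3 and 13.4 in APP4, with no call between siblings. Mir218-1 gave 67.8% of the 3p reads in WT1 and 58.3% in APP4, the lowest share, where the interval ran from 53.6 to 62.8%. The 3p arms of miR-218 are also alike over most of their length. Reads with mismatches may therefore be assigned to the wrong arm, which the interval does not cover.

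miR-137-3p moved in opposite directions in the sibling pairs. Its level was 269.7 RPM in WT1 and 329 in WT2, against 299 in APP3 and 375 in APP4, and the genotypes overlapped. The log2 fold change was 0.47 (counting SE 0.02) in APP4 against WT1 and -0.14 (counting SE 0.02) in APP3 against WT2, with no call in either. WT2 lay 0.29 above WT1 and APP4 lay 0.33 above APP3 on the same log2 scale. miR-137 was the only one of these hairpins whose 3p arm was the main arm, with 99.1% of its reads in WT2 and 98.5 to 98.6% in the other libraries. This share was called in APP3 against WT2, with a log2 odds ratio of -0.74, and in WT2 against WT1, with 0.76, both of which involve WT2. These calls rested on 64 to 105 reads of miR-137-5p per library and were lost with a Bonferroni adjustment and at an odds ratio of 2. miR-137-5p itself was at 4.03 RPM in WT1 and 2.90 in WT2, against 4.42 in APP3 and 5.25 in APP4, and was called in APP3 against WT2 with a log2 fold change of 0.61 (counting SE 0.23) at an FDR of 0.0319 by the two-sided Fisher's exact test.

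miR-135a-5p and miR-135b-5p, which come from separate genes, differed little between the genotypes. miR-135a-5p was at 164 RPM in WT1 and 176 in WT2, against 142 in APP3 and 179 in APP4, with APP3 lowest and APP4 highest. Its log2 fold change was 0.13 in APP4 against WT1 and -0.30 in APP3 against WT2. miR-135b-5p was at 31.7 RPM in WT1 and 38.5 in WT2, against 30.4 in APP3 and 38.5 in APP4, again with APP3 lowest, and its log2 fold change was 0.28 in APP4 against WT1 and -0.34 in APP3 against WT2. Neither was called in any of the 4 comparisons of libraries. The ratio of miR-135a-5p to miR-135b-5p reads was 5.17 in WT1 and between 4.57 and 4.68 in the other libraries. The Mir135b hairpin holds a stretch nearly the same as miR-135a-5p, and the counts include reads with mismatches. Some reads of either miRNA may therefore be counted for the other, which was not tested.

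The opposite arms of miR-135 were lower in both APP mice than in both WT mice, without a call in either sibling pair, although miR-135a-1-3p was called in APP4 against WT1 with TMM scaling, at a log2 fold change of -0.65. miR-135a-1-3p was at 22.8 RPM in WT1 and 18.1 in WT2, against 16.7 in APP3 and 17.3 in APP4. miR-135a-2-3p was at 15.5 RPM in WT1 and 17.4 in WT2, against 13.1 in APP3 and 14.4 in APP4. miR-135b-3p was near the lower end of the table, at 1.19 RPM in WT1 and 0.906 in WT2, against 0.705 in APP3 and 0.892 in APP4, from 15 to 31 reads. The 3p share of miR-135a reads was 18.9% in WT1 and 16.8% in WT2, against 17.3% in APP3 and 15.0% in APP4, the largest share of a minor arm among these miRNAs. Its change did not reach an odds ratio of 1.5 in any comparison.

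In APP4 against WT1, 3 of the 7 members were called, all higher, where 11.6% of the 899 miRNAs tested were called. These 3 were all arms of miR-138, so they are not separate miRNAs, and no other main arm was called. The medians of the members below also count the miR-138 arms separately. In APP3 against WT2, 1 of 7 was called, miR-138-5p, with 6.81% of 896 called. Between the WT mice 1 of 7 was called, miR-138-1-3p, with 10.1% of 879 called, and between the APP mice 0 of 7 were called, with 8.05% of 907 called. All 7 had an FDR under 0.05 in both sibling pairs, so at these depths the 1.5-fold limit and not the test decided the calls. The median log2 fold change of the members was 0.47 in APP4 against WT1, where all miRNAs tested had a median of 0.21, and -0.14 in APP3 against WT2, where the median was 0.05. It was 0.29 between the WT mice and 0.33 between the APP mice, with medians of 0.14 and 0.12 over all miRNAs. With trimmed mean of M-values (TMM) scaling, which centres the bulk of the miRNAs, all log2 fold changes between APP4 and WT1 moved by -0.25. miR-138-5p then stood at 0.68 and 0.67 in the sibling pairs and kept both calls, whereas miR-138-1-3p at 0.56 and miR-138-2-3p at 0.34 lost theirs in APP4 against WT1. miR-135a-5p turned to -0.13 in that pair, while miR-218-5p fell to 0.20 and miR-137-3p to 0.22.

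**Figure D3:**
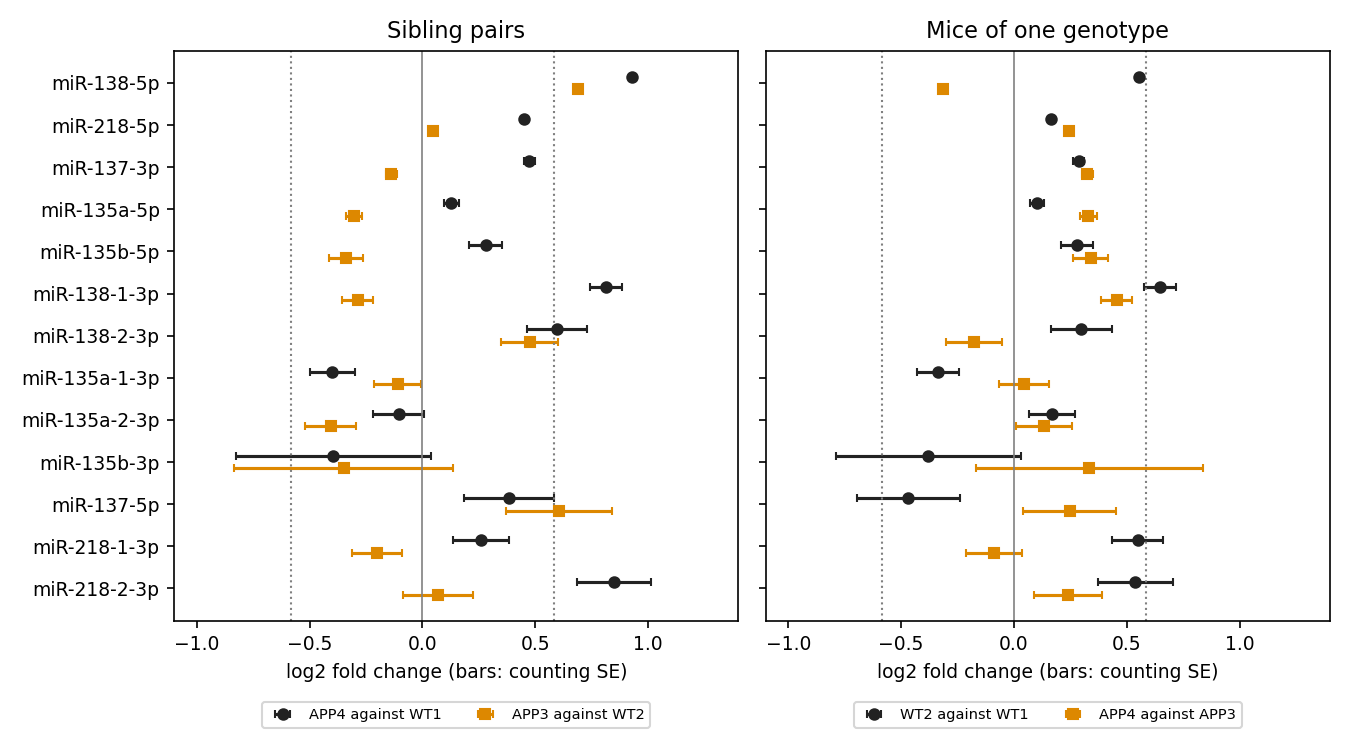
Log2 fold change of each arm in the sibling pairs (left) and between mice of the same genotype (right), with reads scaled to the miRNA reads of each library; bars are counting SE, and dotted lines mark 1.5-fold. miR-138-5p is past 1.5-fold in both sibling pairs, at 0.93 and 0.69, and within it between mice of the same genotype, at 0.55 and -0.31.

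Arm shares were called in 0 of the 5 miRNAs in APP4 against WT1, where 12.1% of all miRNAs with both arms were called, and in 2 of 5 in APP3 against WT2, where 10.5% were called. Between the WT mice 1 of 5 was called, with 15.1% over all, and between the APP mice 1 of 5, with 13.1%.

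Over the 4 mice, 3 of the 7 members were higher in both APP than in both WT libraries. They were miR-218-5p and, as arms of the same miRNA, miR-138-5p and miR-138-2-3p. The same held for 27.0% of the 623 miRNAs tested. None of the 7 was lower in both, which held for 8.99% of all, although miR-135a-5p was under TMM scaling. The shares over all miRNAs depended on the scaling: with TMM, 14.9% were higher in both APP libraries and 19.1% lower, and with clean reads 156 and 57 of the 623 were. Among the other 6 arms, miR-137-5p and miR-218-2-3p were higher in both APP libraries and the 3 arms of miR-135 were lower. These 5 arms and the 3 members above lay on the same side with scaling to miRNA reads, to clean reads and by TMM.

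With the mice as replicates, no member passed edgeR's quasi-likelihood test at an adjusted p under 0.05, and neither did any of the 623 miRNAs tested (0%). Over all miRNAs, 36 had an unadjusted p under 0.05 with edgeR, and DESeq2 called 0 with 28 under 0.05 unadjusted. With the sibling pair as a block edgeR called 2 miRNAs, neither of them a member. For miR-138-5p the log2 fold change of APP against WT was 0.67 (SE 0.24), with an edgeR adjusted p of 0.768 and an unadjusted p of 0.0249. With the sibling pair as a block the log2 fold change was 0.67 (SE 0.16) and the edgeR adjusted p 0.198, and over all alternatives tried its adjusted p ran from 0.198 to 0.954. Leaving out each mouse in turn moved its log2 fold change between 0.44 without APP3 and 0.95 without WT2. miR-138-2-3p stood at 0.41 (SE 0.21) with an edgeR adjusted p of 0.879. The other members had smaller values of 0.11 for miR-218-5p and miR-138-1-3p, 0.03 for miR-137-3p, -0.16 for miR-135b-5p and -0.22 for miR-135a-5p, with edgeR adjusted p between 0.958 and 0.995. An exact two-sided permutation test of a single level cannot go below p = 0.33 with 2 mice against 2.

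**Figure D4:**
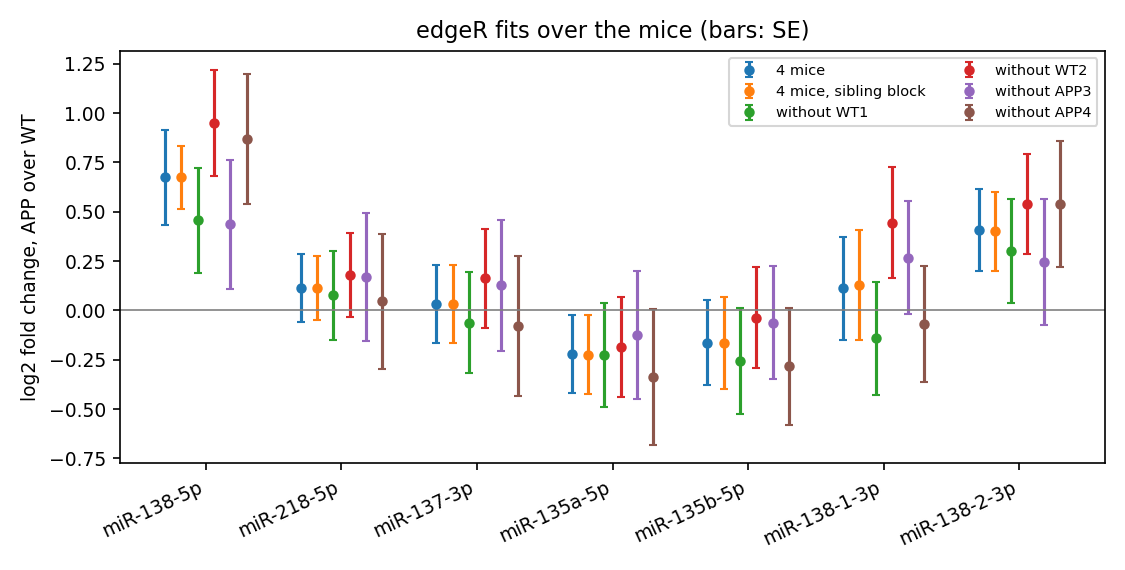
Log2 fold change of APP over WT for the 7 members by edgeR, with all 4 mice, with the sibling block and without each mouse in turn; bars are SE. miR-138-5p lies between 0.44 and 0.95 in these fits, while miR-137-3p and miR-138-1-3p fall on both sides of 0, and no member was called in any of them.

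The miRNAs whose pattern over the 4 libraries was most like that of each main arm were named by the root mean square distance of their centred log2 levels, among the 252 that averaged 50 RPM or more. For miR-138-5p these were miR-434-3p at a distance of 0.10, miR-331-3p at 0.12 and miR-142-5p at 0.21, where the median distance was 0.47. miR-142-5p is a marker of leukocytes, whose 4 marker miRNAs summed to 1211 RPM in WT1 and 1153 in WT2, against 1120.4 in APP3 and 1309 in APP4. That sum did not separate the genotypes, but most of it was miR-146a-5p. This miRNA was at 1149 RPM in WT1 and 1071 in WT2, against 1023 in APP3 and 1209 in APP4. miR-142-5p alone was at 54.7 RPM in WT1 and 74.3 in WT2, against 88.4 in APP3 and 90.9 in APP4. miR-223-3p overlapped, at 4.52 RPM in WT1 and 5.89 in WT2, against 6.07 in APP3 and 5.72 in APP4. Of the leukocyte markers, 2 of 4 were called higher in APP4 than in WT1 and 1 of 4 in APP3 than in WT2. Neither miR-146a-5p nor miR-223-3p was called in either pair. The calls in APP4 against WT1 were thus miR-142-5p and the remaining marker, miR-142-3p. In APP3 against WT2 the call was miR-142-3p, since miR-142-5p differed there by less than 1.5-fold. The part of the leukocyte markers in the miR-138-5p values was not tested. miR-872-5p, miR-126-3p and miR-136-3p were nearest to miR-218-5p, all within 0.026 where the median was 0.19. miR-126-3p marks endothelium, whose 2 marker miRNAs summed to between 7322 and 9135 RPM. For miR-137-3p the nearest were miR-487b-3p, miR-340-3p and miR-212-3p, for miR-135a-5p miR-134-5p, miR-1224-5p and miR-10a-5p, and for miR-135b-5p miR-434-5p, miR-3099-3p and miR-674-5p. These lay within 0.056, where the medians ran from 0.21 to 0.22. With 4 libraries, such likeness is a description only.

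A list of 19 other miRNAs known from dendrites and synapses, among them the spine regulator miR-134-5p and the activity-induced miR-132-3p and miR-212-3p, served as a comparison. All 19 were listed in the table. In APP4 against WT1, 0 of 19 were called in either direction, with a median log2 fold change of 0.15 beside 0.21 over all miRNAs. In APP3 against WT2, 2 of 19 were called, both lower, with a median of 0.03 beside 0.05. These were miR-125a-5p, at -0.59, and miR-125b-5p, at -0.62, which are known to bear on spine shape and on the synaptic scaffold PSD-95. Levels of miR-125b-5p were 12972 RPM in WT1 and 19809.9 in WT2, against 12883 in APP3 and 11760.5 in APP4, so WT2 was the library that stood apart. miR-125a-5p had the same shape, with 25146 RPM in WT2 and between 14635 and 16679.5 in the other libraries. Between the WT mice 3 of 19 were called, all higher in WT2, and between the APP mice 1 of 19, higher in APP4. With edgeR over the 4 mice 0 of these 19 had an adjusted p under 0.05.

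Summed levels of marker miRNAs of other cell types are given as a description, and the most abundant marker weighs most in each sum. Those of oligodendrocytes summed to 1904 RPM in WT1 and 2162 in WT2, against 2171 in APP3 and 2275 in APP4. Those of the choroid plexus and ciliated cells lay between 3343 and 4693 RPM, and those of red blood cells between 3206 and 4626 RPM, both with APP4 lowest and WT2 highest. Of the 3 red blood cell markers, 2 were called higher in APP4 than in WT1 and 0 in APP3 than in WT2. Between the WT mice 2 were called higher in WT2, with a median log2 fold change of 1.13 over the 3. That median was 0.67 in APP4 against WT1 and -0.19 in APP3 against WT2, so the sum does not show how single markers moved. Of the 5 choroid plexus and ciliated cell markers 1 was called higher in each sibling pair. With scaling to miRNA reads, the oligodendrocyte sum was higher in both APP than in both WT libraries. The difference was less than the 1.5-fold limit, with WT2 and APP3 nearly equal. With the same scaling this order held for 27.0% of the 623 miRNAs tested. TMM scaling moves all values of APP3 against WT2 by -0.018 on the log2 scale. That shift is larger than the gap between their sums, so APP3 falls below WT2 and the order is lost with TMM. The part of the oligodendrocyte markers in the values of miR-138-5p and miR-218-5p was not tested.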

How the data were processed

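Total RNA of 4 cortexes was made into TruSeq small RNA libraries and sequenced on an Illumina instrument, 1 library per mouse. The labels name Trizol and the study's methods the miRNeasy kit for the extraction. Per the methods, the authors kept inserts of 18 to 35 nt and counted tags against miRBase 19. The methods allow at most 2 mismatches and elsewhere none for miRBase, and the summed counts exceeded the perfect matches in the study's annotation table, so the counts include reads with mismatches. The submitters' processing notes name CASAVA 1.8 and mm9, whereas the methods name GRCm38; positions here are those of RefSeq and GENCODE on GRCm38. The deposited table gives read counts per mature miRNA and RPM per clean reads. The authors made both columns. The deposited counts were used, scaled to the summed miRNA counts, and the deposited RPM only served to recover clean-read totals.

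Pairs of libraries were compared by two-sided Fisher's exact tests with Benjamini-Hochberg adjustment over all miRNAs with a read in the pair. Such a test compares 2 libraries and not the genotypes. The 4 mice were compared with edgeR 4.0.16 (filterByExpr, TMM, quasi-likelihood) with Benjamini-Hochberg adjustment, and DESeq2 1.42.0 as an alternative. Fold changes of pairs had 0.5 reads added. Replicate numbers are not shared between genotypes in the labels, and the sibling pairs come from the study's methods. Deviations from the genotype means correlated at r = 0.235 between siblings over 252 miRNAs, which are not independent. Each pair of libraries differed beyond counting noise, so all 4 counted as separate. Named miRNAs were the members, the opposite arms of their hairpins, the 3 miRNAs nearest in pattern to each main arm, and those of the dendrite and synapse list called in a sibling pair. Some other miRNAs of the lists were named as well. Members and lists were chosen with earlier results of these data known. Of the 942 miRNAs, 754 matched a RefSeq entry by name. No listed miRNA with a matched sequence shared a seed with a member. miR-135b-5p had no matched sequence, so it was not printed and this search could not show the seed it shares with miR-135a-5p.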

Additional observations from a re-analysis of the deposited data

Results flagged for a closer look

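In 4 members the sibling pairs moved in opposite directions, a difference that was not tested. miR-137-3p had a log2 fold change of 0.47 in APP4 against WT1 and -0.14 in APP3 against WT2. miR-135a-5p stood at 0.13 and -0.30, and miR-135b-5p at 0.28 and -0.34, in the same order. miR-138-1-3p stood at 0.81 and -0.29. With TMM scaling miR-135a-5p was at -0.13 and -0.32, so its pairs then had the same direction.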

How the results depend on the processing

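The study had 2 mice per genotype and 1 library per mouse, so the spread between mice rests on few values. Counting limited the rarest arm, miR-135b-3p, with 15 to 31 reads. The calls depended mainly on the fold limit. With a 2-fold limit, 0 members were called in APP4 against WT1, 0 in APP3 against WT2 and 0 in WT2 against WT1. With TMM, 1 member of 85 miRNAs called in all was called in APP4 against WT1 and 0 of 77 in WT2 against WT1. With libraries scaled to 1000000 reads these counts were 1 and 0. With clean reads 2 members of 103 miRNAs called in all were called in WT2 against WT1, the added one being miR-138-5p at 0.64, and miR-218-1-3p and miR-218-2-3p were called as well. miR-137-5p lost its call in APP3 against WT2 with 5 reads added, at 0.57. Over all miRNAs, the counts for APP4 against WT1, APP3 against WT2, WT2 against WT1 and APP4 against APP3 were 32, 23, 21 and 23 with libraries scaled to 1000000 reads, 53, 30, 40 and 40 at 10 RPM or more, 65, 34, 51 and 47 with the Bonferroni adjustment, and 50, 23, 38 and 38 with a 2-fold limit. Arm shares called at an odds ratio of 2 numbered 17, 16, 14 and 19 in that order, and with Bonferroni 20 in APP4 against WT1 and 25 in APP4 against APP3. With the sibling block edgeR called 2 miRNAs, neither of them a member, and no call of a member changed. Leaving out each mouse in turn, which leaves 1 mouse in a group that is assumed to vary like the other genotype, gave 0 to 21 calls over all miRNAs, with 21 without APP3, 5 without APP4, 3 without WT1 and 0 without WT2, and 0 members called each time. TMM, tried for this count after the data had been seen, placed 1 member, miR-135a-5p, lower in both APP libraries. Directions turned for miR-135a-5p with TMM, to -0.13 in APP4 against WT1 and -0.0041 in WT2 against WT1, and for miR-135a-1-3p in APP4 against APP3, to -0.085 with TMM and -0.026 with clean reads. In the genotype fit, miR-137-3p turned to -0.080 without APP4 and -0.06 without WT1 and ran from -0.080 to 0.16, and miR-138-1-3p turned to -0.07 and -0.14 and ran from -0.14 to 0.44. miR-218-1-3p turned to 0.0044 without TMM and to 0.15 without WT2 and ran from -0.33 to 0.15. The causes were not tested. Of the values of single miRNAs under the alternatives, 301 were counted as unchanged, 10 lost a call, 4 gained one and 10 turned direction. Those counted as unchanged kept direction and side of the threshold, or were distances to the nearest pattern, which have neither. With miRNAs of 10 RPM or more, the smallest distance of miR-137-3p fell from 0.040 to 0.023, so another miRNA was then nearest to it. Of the 10 lost calls, 6 were the arm-share calls of miR-137 under Bonferroni and at an odds ratio of 2 and of miR-138 at an odds ratio of 2.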
